A study of Mus musculus with 21 samples.

Results

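Of 5 mouse skin libraries made after nintedanib treatment, 2 held the transcripts of growing hair in large amounts and 3 did not. The 2 sides were chosen by the measured share of counts that came from hair shaft keratin genes: replicates 1 and 3 had a high share and are called hair-rich here, and replicates 2, 4 and 5 had a low share and are called hair-poor. They are 5 of 21 libraries in the whole series. Because hair keratin content chose the sides, the differences between them are described with their errors and no test is given. Hair keratin and keratin-associated protein (Krtap) genes are left out of the counts of genes below, except where they are named. Tests come from the 16 libraries of the other 4 groups, whose hair keratin levels were not used to place any library.

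All recipients were BALB/c mice, 8 weeks old at irradiation with 700 cGy. The nintedanib, water, isotype antibody and anti-IL1RAP antibody groups received allogeneic B10.D2 marrow, a model of chronic graft-versus-host disease with skin sclerosis, while a syngeneic group received BALB/c marrow and the isotype antibody. Nintedanib, a drug that blocks receptor kinases for VEGF, FGF and PDGF, was given at 50 mg/kg (5 libraries), and its comparison group received water (ddH2O, 4 libraries). The protocol names daily dosing by mouth and the design text names injection, so the route is uncertain. The antibodies, mCAN10 against IL1RAP and the mIgG2a LALA-PG isotype, were injected intraperitoneally on 2 days a week at 10 mg/kg after a first dose of 20 mg/kg (4 libraries a group). Every treatment started on day 21. Skin pieces of 3 mm were collected in week 7, and 1 μg of RNA from a piece made 1 library. The labels do not say that each library is a separate mouse, nor give the sex, the body site or any hair removal, and no histology was used here, so a growing follicle is read from transcripts alone.

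A hair follicle passes through growth (anagen), regression (catagen) and rest (telogen). In growth, matrix cells at the base of the follicle divide around the dermal papilla, a cluster of signalling fibroblasts, and their daughters become the inner root sheath and the cuticle and cortex of the shaft. The cortex fills with hair keratins and then with Krtap proteins, which crosslink the keratin filaments through cysteine. Sonic hedgehog from the matrix and WNT signals acting through the transcription factor LEF1 are known drivers of this phase, melanocytes deliver pigment to the shaft only during it, and the growing bulb is known for low display of MHC class I. BALB/c mice are albino because their tyrosinase is inactive, so pigment gene transcripts can be present without pigment.

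The promoters of 4 follicle genes are shown because these genes were among those that parted the libraries most. Each is the 250 bases before the RefSeq start on the GRCm38.p6 build, on the gene's strand, with TATAAA on that strand and CTTTGAA or its reverse complement TTCAAAG, the core letters bound by LEF1, in capitals.
Krt34, a cortex keratin, chr11:100041555-100041804, minus strand: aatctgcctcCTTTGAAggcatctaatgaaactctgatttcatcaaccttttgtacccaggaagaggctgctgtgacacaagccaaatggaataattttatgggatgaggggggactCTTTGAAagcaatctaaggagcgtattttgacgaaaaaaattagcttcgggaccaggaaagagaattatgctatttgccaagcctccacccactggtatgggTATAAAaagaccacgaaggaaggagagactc
Krt31, a cortex keratin, chr11:100050552-100050801, minus strand: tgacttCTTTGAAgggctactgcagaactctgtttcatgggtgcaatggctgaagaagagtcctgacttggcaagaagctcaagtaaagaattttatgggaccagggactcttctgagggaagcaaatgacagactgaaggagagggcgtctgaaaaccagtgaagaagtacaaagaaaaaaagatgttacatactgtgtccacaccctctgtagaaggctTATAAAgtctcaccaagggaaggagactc
Krt25, an inner root sheath keratin, chr11:99322952-99323201, minus strand: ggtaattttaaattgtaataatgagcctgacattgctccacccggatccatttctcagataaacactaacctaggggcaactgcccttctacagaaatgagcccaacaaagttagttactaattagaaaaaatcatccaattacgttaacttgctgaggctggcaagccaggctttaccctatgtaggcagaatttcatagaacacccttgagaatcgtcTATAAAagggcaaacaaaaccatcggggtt
Tchh, trichohyalin of the inner root sheath and medulla, chr3:93442080-93442329, plus strand: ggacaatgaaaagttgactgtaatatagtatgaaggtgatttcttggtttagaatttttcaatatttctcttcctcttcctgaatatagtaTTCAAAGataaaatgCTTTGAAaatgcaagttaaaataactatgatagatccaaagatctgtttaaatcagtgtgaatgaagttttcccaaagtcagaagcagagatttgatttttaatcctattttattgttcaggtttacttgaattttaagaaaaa
The 3 keratin promoters held TATAAA with its first base 31, 29 and 30 bases before the start of Krt34, Krt31 and Krt25. CTTTGAA lay 240 and 133 bases before the start of Krt34 and 244 before that of Krt31, and Tchh held 1 copy on each strand, 159 and 144 bases before its start. Over windows of 300 bases (250 before and 50 after the start), 5 of the 9 hair keratin promoters in the table held TATAAA (55.6%) and 5 held the LEF1 letters (55.6%). The corresponding shares were 75% and 12.5% of 8 root sheath and companion layer keratins, 82.4% and 17.6% of 51 Krtap promoters, 20% and 6.67% of 15 promoters of other shaft and cortex proteins (the list that holds Tchh), and 8.88% and 5.27% of all 27025 promoters. A match is a description of the letters and does not show binding.

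Values below are CPM, which are counts scaled to the library total with TMM factors and not corrected for gene length. For each gene they come in the order of nintedanib replicates 1 and 3, then replicates 2, 4 and 5. Summed over hair shaft keratin genes, replicate 1 had 15617 CPM and replicate 3 had 1979 CPM. Replicates 5, 2 and 4 had 6.56, 5.62 and 4.58 CPM, so that the libraries nearest the divide were replicates 3 and 5. Krt85 was counted in the second of 2 counting runs only (water and nintedanib), so the sums of the other 12 libraries lack it. With that difference, the 16 libraries of the other groups lay between 2.29 and 41.3 CPM, so that the hair-poor libraries were inside the range of the rest of the series and the hair-rich ones far above it. The markers of hair shaft named for this split followed: the cortex keratin Krt34 was at 1407 and 69.6 CPM against 0, 0 and 0 CPM, Krt83 at 2011 and 112 CPM against 0, 0.421 and 0 CPM, the orphan receptor Gprc5d at 617 and 46.4 CPM against 0, 0 and 0 CPM, and the cuticle protein S100a3 at 1208 and 521 CPM against 0.416, 1.21 and 0.167 CPM. The sides did not overlap for any of the 4, and these values are part of what chose them. Together, 242 genes, hair keratins and Krtap genes included, with a difference of at least 16-fold held 12.1% of all counts in replicate 1 and 3.48% in replicate 3, and at most 0.0287% in the hair-poor libraries.

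**Figure D1:**
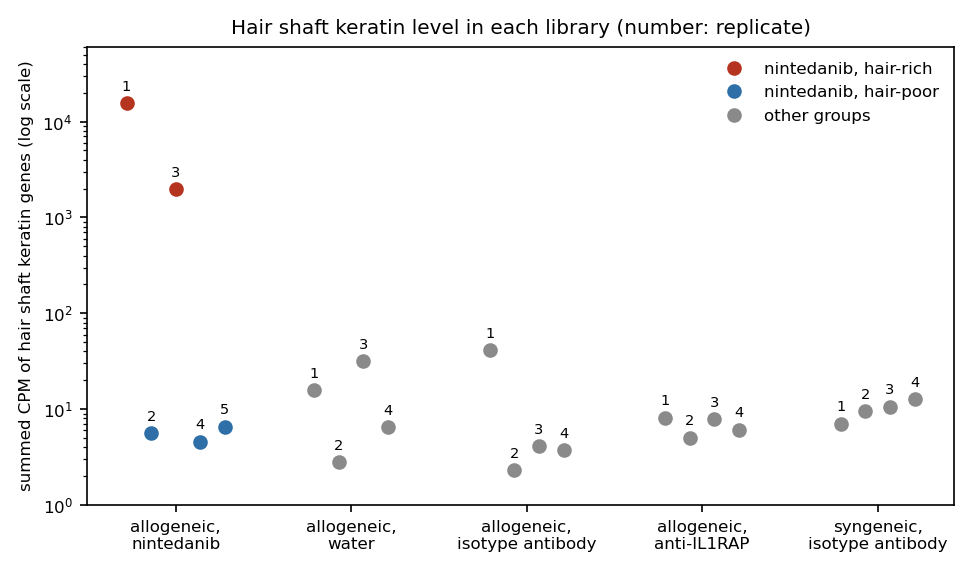
Summed CPM of hair shaft keratin genes (vertical axis, log scale) in each of the 21 libraries by group (horizontal axis), 1 point a library with its replicate number. Nintedanib replicates 1 and 3 sit at 15617 and 1979 CPM, and the other 19 libraries at 41.3 CPM or less.

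A gene was called higher or lower in hair-rich skin when the sides did not overlap in CPM and their mean log2 CPM (prior count 2) differed by at least 1. Among 16560 genes with a mean of at least 0.5 CPM over the 5 libraries, 1568 (9.47%) were called higher and 1975 (11.9%) lower, and the median difference over all genes was 0.05. Leaving the genes that were at least 16-fold higher out of the library totals moved these counts to 2025 higher and 1581 lower, or from 44.3% to 56.2% higher among the genes called, and the median over all genes to 0.19. Gene differences are hair-rich minus hair-poor mean log2 CPM ± SE (n = 2 and 3). Total counts were between 17130264 and 18938321 in the 5 libraries. A note in the labels that reads came from different sequencing lanes is on replicate 3 of the hair-rich side and on replicates 2 and 5 of the hair-poor side, so it crosses the split. In bulk skin, fewer cells of a type and less RNA per cell cannot be told apart.

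The inner root sheath surrounds and moulds the shaft, and the companion layer lies outside it. All 9 measured keratins of these layers were called higher (12.12 median difference, or 13.41 with the 3 members at 0 in hair-poor skin set at their bound). Krt25 was at 8952 and 4386 CPM against 0.0520, 0.0526 and 0.111 CPM, Krt71 at 17167 and 8008 CPM against 0.104, 0.737 and 0.779 CPM and Krt27 at 6104 and 2394 CPM against 0.104, 0.211 and 0.111 CPM. All 3 were abundant in both hair-rich libraries and stayed under 1 CPM in the hair-poor ones. Krt72 and Krt26 had no count in hair-poor skin and were at least 13129-fold and 10849-fold higher, against 3 counts over that side. The companion layer keratin Krt75 was present throughout, at 1440.2 and 589.7 CPM against 67.9, 54.5 and 83.3 CPM, a difference of 3.77 ± 0.67.

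Among 16 other proteins of the shaft and cortex, 15 were called higher, with a median difference of 7.98. Tchh, which hardens the inner root sheath, was at 20031 and 4441 CPM against 5.57, 5.05 and 9.40 CPM, a difference of 10.50 ± 1.12. Padi3, which converts arginines of trichohyalin to citrulline, was at 781 and 309.6 CPM against 0.676, 0.263 and 0.334 CPM (9.97 ± 0.75). Vsig8, a surface protein of shaft and nail, was at 713 and 222 CPM against 0.676, 0.579 and 0.111 CPM (9.71 ± 1.04), and Crnn, a protein of the same gene family as Tchh, was at 1097 and 210.3 CPM against 0.104, 0.158 and 0.278 CPM (10.82 ± 1.22). Each of these genes was at least 10 times higher in replicate 3 than in any hair-poor library. The exception in the list was Lypd3, at 253 and 274 CPM against 194, 229.8 and 362 CPM, where the sides overlapped. Lyg2, a lysozyme-like gene, had no count in hair-poor skin and 464 and 112 CPM in hair-rich skin, at least 5393-fold higher.

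The excess of replicate 1 over replicate 3 differed between the classes of shaft genes. Each ratio is of 1 library to 1 library, with an exact interval that covers counting error only. For keratins made first, in matrix and early cortex, replicate 1 held 858 CPM of Krt35 against 532 in replicate 3, a ratio of 1.61 (95% interval 1.57 to 1.65), and the ratio for Krt85 was 2.57 (95% interval 2.51 to 2.63). Cuticle keratins together had a ratio of 2.54 (95% interval 2.43 to 2.66). The late keratins of cuticle and cortex, Krt39 and Krt40, had a summed ratio of 9.18 (95% interval 8.32 to 10.14). Cortex keratins summed to 12715 against 756 CPM, a ratio of 16.82 (95% interval 16.55 to 17.09). The Krtap genes had ratios of 17.52 (95% interval 17.25 to 17.79) for 40 cysteine-rich and 52.11 (95% interval 50.54 to 53.74) for 18 glycine-tyrosine-rich members. These classes were set by the family number in the gene name alone. Protein sequences were not checked, so a member may sit in the wrong class. Several Krtap genes and hair keratins are near-identical in sequence, so that reads may be split between members, and sums are less affected than single genes.

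**Figure D2:**
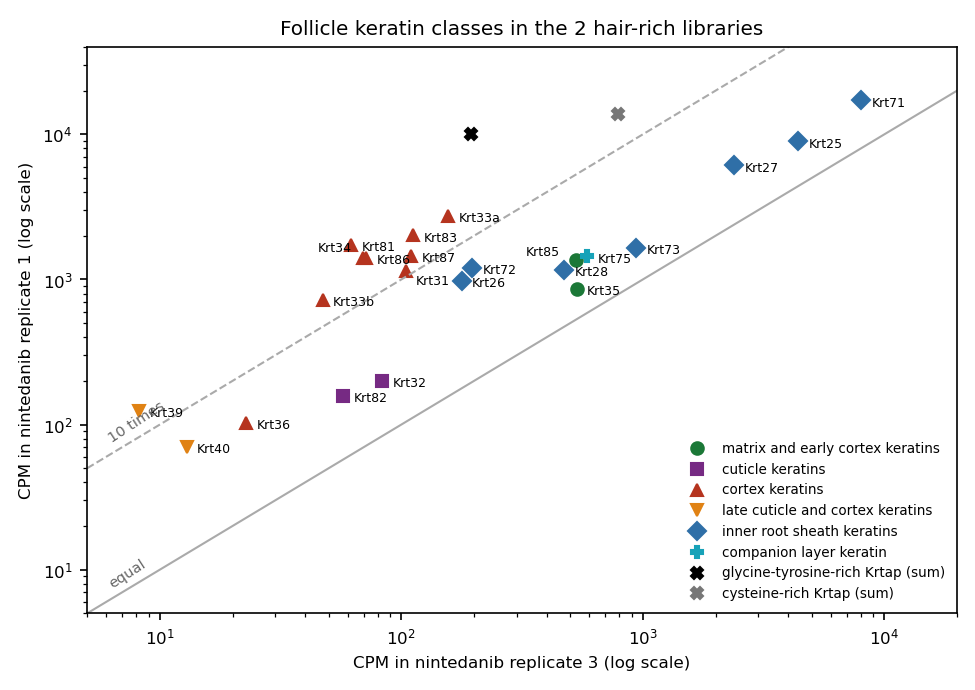
CPM of follicle keratins in nintedanib replicate 3 (horizontal axis) and replicate 1 (vertical axis), both log scales, 1 point a gene and 1 point for each summed Krtap class, with lines for equal and for 10 times higher values. Early keratins such as Krt35 (858 against 532 CPM) lie near the line of equality, and the summed cysteine-rich Krtap genes (13826 against 789 CPM) lie above the line for 10 times.

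Genes upstream of the shaft proteins had lower ratios than the cortex keratins and were not alike. The ratio of replicate 1 to replicate 3 was 1.37 (95% interval 1.29 to 1.45) for Lef1, 1.00 (95% interval 0.96 to 1.05) for Mki67 and 0.69 (95% interval 0.62 to 0.77) for Shh. The transcription factors Foxn1, Hoxc13 and Msx2 had ratios of 3.40 (95% interval 3.17 to 3.65), 1.70 (95% interval 1.62 to 1.78) and 1.60 (95% interval 1.52 to 1.68). Foxn1 was above both early keratins, while Hoxc13 and Msx2 were near Krt35 (1.61) and under Krt85 (2.57). Inner root sheath keratins had a summed ratio of 2.25 (95% interval 2.24 to 2.25). The 7 members ran from 1.75 (95% interval 1.72 to 1.78) for Krt73 to 6.13 (95% interval 5.93 to 6.34) for Krt72. Tchh had a ratio of 4.51 (95% interval 4.48 to 4.54). Replicate 1 thus held as much Mki67 as replicate 3, less Shh, and many times more cortex keratin and Krtap transcripts. One keratin went further: Krt84 was at 134 CPM in replicate 1 and 0.415 CPM in replicate 3, level with the hair-poor libraries at up to 0.780 CPM, and was the 1 of 16 measured hair keratins that was not called. Fgf5, the growth factor known to end the growth phase, was at 38.4 and 5.81 CPM against 0.468, 0.632 and 0.167 CPM (4.99 ± 1.42). It was called higher, and replicate 1 held most of it.

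Transcription factors of hair differentiation were mostly higher. Of 18 measured, 13 were called higher and 1 lower (median 1.66). Hoxc13, which switches on hair keratin genes, was at 234 and 138 CPM against 7.18, 8.47 and 9.12 CPM (4.43 ± 0.40; water 9.75 to 12.97 CPM). Msx2, of the matrix, was at 202 and 126 CPM against 4.73, 6.32 and 3.84 CPM (5.01 ± 0.40), and Dlx2 at 28.4 and 31.4 CPM against 0.624, 1.26 and 1.28 CPM (4.76 ± 0.32). Foxn1, the nude gene that acts in shaft precursors, was at 171 and 50.3 CPM against 15.97, 14.0 and 24.9 CPM (2.38 ± 0.92). In all 4 the hair-poor libraries were within or below the range of the water group or overlapped it, and both hair-rich libraries were above all of them. Satb1, a chromatin organiser of epidermal and immune cells, was called lower at 9.47 and 19.9 CPM against 44.1, 42.5 and 43.1 CPM (-1.65 ± 0.53).

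The sonic hedgehog pathway had 7 of 13 genes called higher and none lower (median 1.20). The ligand Shh was at 29.7 and 42.9 CPM against 0.104, 0.790 and 0.389 CPM, with 0.0603 to 2.18 CPM in water libraries, a difference of 6.35 ± 0.68. Its receptor Ptch1, also a target of the pathway, was at 96.5 and 101 CPM against 24.9, 30.8 and 32.9 CPM (1.75 ± 0.13). The target Gli1 was at 88.4 and 133 CPM against 18.3, 25.0 and 25.7 CPM (2.25 ± 0.34), and Hhip, a decoy receptor induced by the signal, at 10.5 and 18.6 CPM against 0.936, 1.00 and 1.28 CPM (3.60 ± 0.43). Shh, Ptch1, Gli1 and Hhip were all higher in both hair-rich libraries than in each hair-poor one. The signal transducer Smo was at 115 and 121 CPM against 71.2, 70.2 and 103 CPM, a difference of 0.56 ± 0.18, which missed the size of call. The co-receptors Boc and Gas1 had differences of -0.47 ± 0.22 and -0.99 ± 0.36, in the other direction, without a call.

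Of 30 WNT pathway genes, 16 were called higher and 2 lower (median 1.05). Lef1, the nuclear partner of beta-catenin in matrix and precortex, was at 133 and 97.1 CPM against 3.49, 10.8 and 8.12 CPM (4.05 ± 0.53). Among ligands, Wnt10b, whose activity promotes hair growth, was at 47.8 and 63.5 CPM against 8.06, 17.2 and 9.96 CPM (2.30 ± 0.38), Wnt11 at 65.8 and 50.7 CPM against 6.97, 6.32 and 8.29 CPM (3.00 ± 0.22) and Wnt5a, of the papilla and matrix, at 142 and 100.1 CPM against 26.8, 11.3 and 20.7 CPM (2.69 ± 0.45). Rspo2, a secreted booster of WNT receptors, was at 1.99 and 4.84 CPM against 0.0520, 0.316 and 0 CPM (4.17 ± 0.89). The sides did not overlap for any of these. Axin2, a general target of the pathway, was at 52.9 and 45.8 CPM against 47.1, 49.1 and 41.0 CPM (0.11 ± 0.13) and showed no such difference. The 2 genes called lower were the inhibitor Dkk2, at 8.24 and 9.27 CPM against 29.0, 58.0 and 52.0 CPM (-2.33 ± 0.32), and Wnt7b, at 18.2 and 58.6 CPM against 66.9, 65.4 and 100.1 CPM (-1.21 ± 0.86).

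BMP and Notch genes were divided, with 8 of 26 called higher and 4 lower (median 0.64). Bmp4, made by the dermal papilla, was at 35.1 and 43.4 CPM against 13.8, 14.4 and 19.1 CPM (1.32 ± 0.21), Bmp8a at 7.72 and 3.78 CPM against 0.884, 0.263 and 0.389 CPM (3.32 ± 0.66), and the Notch target Heyl at 75.6 and 53.7 CPM against 11.2, 7.16 and 8.40 CPM (2.85 ± 0.31). Grem1, an inhibitor of BMP, was at 1.40 and 4.38 CPM against 7.54, 5.47 and 17.4 CPM (-1.81 ± 0.93). Bmp4, Bmp8a and Heyl were higher and Grem1 lower, each with separate sides. FGF, IGF and growth-switch factors had 3 of 21 called higher and 7 lower (median -0.66). Fgf18, made by resting follicles and known to hold them at rest, was at 5.55 and 3.41 CPM against 21.2, 25.8 and 24.1 CPM (-2.41 ± 0.35). Its level in water libraries, 2.51 to 9.65 CPM, lay nearer to the hair-rich side. Tgfb2, a factor linked to the start of regression, was at 10.00 and 9.22 CPM against 16.02, 20.4 and 27.9 CPM (-1.11 ± 0.24), and Igf1, a papilla growth factor, was at 43.4 and 53.0 CPM against 116, 29.0 and 80.8 CPM with overlapping sides. Without replicate 4, 11 genes of this list were called lower, and without replicate 2 the BMP and Notch list had 2 lower.

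Genes of cell division, which in growing follicles is concentrated in the matrix, were higher as a group. Of 46 measured, 33 were called higher and none lower (median 1.92), and 41 were above all 4 water libraries in both hair-rich libraries, against 29.3% of all genes. Mki67, of dividing cells, was at 205 and 205 CPM against 18.2, 57.6 and 53.9 CPM, with 38.8 to 69.0 CPM in water libraries (2.42 ± 0.54). Ccnb1, the mitotic cyclin, was at 65.9 and 63.5 CPM against 4.11, 15.2 and 16.4 CPM (2.67 ± 0.64), Top2a, a topoisomerase of dividing cells, at 149 and 167 CPM against 17.9, 52.1 and 52.8 CPM (2.10 ± 0.52), and Mycn, a proliferation factor active in matrix, at 42.2 and 55.5 CPM against 2.50, 4.84 and 4.23 CPM (3.67 ± 0.35). Both hair-rich libraries were close to each other in all 4 genes, and among hair-poor libraries replicate 2 was the lowest in 44 of the 46. Of the genes that copy DNA, Mcm2 was at 63.6 and 67.9 CPM against 21.2, 44.6 and 41.7 CPM (0.95 ± 0.35) and Pcna at 150.4 and 144 CPM against 62.9, 117 and 72.1 CPM (0.86 ± 0.27), neither called.

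Genes that supply cysteine and glutathione had 7 of 15 called higher and none lower (median 1.00). Cth, which makes cysteine from cystathionine, was at 39.5 and 8.49 CPM against 3.28, 2.79 and 1.78 CPM (2.81 ± 1.13), and the cystine importer Slc7a11 at 19.3 and 4.29 CPM against 0.832, 1.53 and 1.17 CPM (2.90 ± 1.10). Both were 4 to 5 times higher in replicate 1 than in replicate 3, as cortex keratins and Krtap genes also were higher there. Ribosome biogenesis genes had 3 of 16 called higher (9 without replicate 3, 2 without replicate 1 or 2), and none of 10 polyamine genes was called (2 higher without replicate 3).

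Smaller shares of the genes of the dermal papilla and of the outer layers of the follicle were called. Of 27 papilla genes 8 were called higher and 2 lower (median 0.60). Corin, a papilla protease that acts on coat colour, was at 18.7 and 16.1 CPM against 1.25, 1.32 and 0.556 CPM (4.02 ± 0.38), Alx4 at 14.4 and 21.7 CPM against 3.59, 3.58 and 5.79 CPM (2.05 ± 0.37) and the WNT inhibitor Notum at 10.6 and 18.5 CPM against 2.39, 3.895 and 3.23 CPM (2.14 ± 0.45). These were separate between the sides, while Sox2, at 1.17 and 2.40 CPM against 1.40, 1.63 and 1.28 CPM, and Alpl, at 10.5 and 18.4 CPM against 11.0, 7.001 and 4.06 CPM, both also papilla genes, overlapped. Outer root sheath and stem cell genes had 6 of 24 called higher and 2 lower (median 0.42). Lhx2, of stem cells and early hair growth, was at 84.7 and 113 CPM against 28.0, 30.7 and 54.3 CPM (1.44 ± 0.36) and the cycling stem cell marker Lgr5 at 48.1 and 36.2 CPM against 8.69, 20.3 and 24.2 CPM (1.36 ± 0.50). The bulge genes Krt15, at 711 and 1030.3 CPM against 1029, 1427 and 1245 CPM, and Cd34, at 45.1 and 59.3 CPM against 95.5, 92.9 and 106 CPM, were not called, and Nfatc1, which keeps bulge cells quiet, was called lower at 42.6 and 52.8 CPM against 92.0, 94.5 and 119.6 CPM (-1.09 ± 0.20). Without replicate 3 the lower calls were 6 in the papilla list and 5 in the outer root sheath and stem cell list, without replicate 4 they were 4 and 3, and in the latter list they were 4 without replicate 2 and 1 without replicate 1 or 5.

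Some genes of the permanent follicle and its gland were above the water group on both sides of the split. Krt15 had 172 to 394 CPM in water libraries, under all 5 nintedanib libraries, and Sox9, of outer root sheath and stem cells, was at 177 and 106 CPM against 75.7, 72.8 and 107 CPM, with 16.9 to 34.4 CPM in water. Of the 24 outer root sheath and stem cell genes, hair-rich libraries were above all water libraries in 12 and hair-poor libraries in 11. Over all genes these shares were 29.3% and 8.54%. For 20 sebaceous gland genes the counts were 11 and 8. Under all water libraries were 6 and 1 of the 24 and 3 and 0 of the 20, against 22.2% and 9.24% over all genes. Far2, a fatty alcohol enzyme of the gland, was at 93.4 and 80.9 CPM against 88.7, 51.5 and 302 CPM, with 1.34 to 4.77 CPM in water, and the wax synthase Awat2 at 10.5 and 18.6 CPM against 12.9, 11.9 and 34.5 CPM, with 0.401 to 0.701 CPM. Between the sides, 2 of the 20 gland genes were called higher and 2 lower (6 lower without replicate 4, 1 without replicate 2 or 5). The shares called over all genes were 9.47% higher and 11.9% lower. Krt15, Sox9, Far2 and Awat2 thus lay above the water range in both kinds of nintedanib skin. The cell cycle list had 41 of 46 genes above the water range in hair-rich skin and none in hair-poor skin.

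Pigment cell genes were higher in hair-rich skin. Of 21 measured, 14 were called higher and 2 lower (median 1.82). Tyr, tyrosinase, was at 12.6 and 8.16 CPM against 0.156, 0.684 and 1.06 CPM (4.07 ± 0.73; water 0.302 to 2.10 CPM). Dct and Tyrp1, the other enzymes of melanin synthesis, were at 53.3 and 45.4 CPM against 8.95, 14.6 and 20.3 CPM (1.82 ± 0.36) and 34.2 and 19.3 CPM against 5.36, 8.95 and 9.79 CPM (1.71 ± 0.49). The matrix protein of pigment granules, Pmel, was at 30.0 and 33.4 CPM against 5.57, 7.11 and 12.2 CPM (2.00 ± 0.34), and Mlana at 6.14 and 8.12 CPM against 0.624, 0.632 and 1.45 CPM (2.94 ± 0.42). Both hair-rich libraries were above all hair-poor and all water libraries for Tyr, Dct, Tyrp1, Pmel and Mlana. The regulator Mitf was at 73.8 and 27.3 CPM against 22.6, 20.6 and 25.9 CPM (0.97 ± 0.72), under the size of call. Sox10, shared by melanocytes and Schwann cells, was called lower at 3.86 and 12.1 CPM against 18.7, 24.0 and 22.5 CPM (-1.64 ± 0.82), as were 7 of 12 Schwann cell and nerve genes, Sox10 among them, none being higher (median -1.25; 2 higher without replicate 3 or 5). Without replicate 1, 4 of the nerve genes and no pigment gene were called lower. Of 7 signals to pigment cells, 5 were called higher and 1 lower (4 and 2 without replicate 1 or 5). Among the higher was Edn3, an endothelin that acts on melanocytes, at 18.8 and 21.1 CPM against 1.46, 1.21 and 2.61 CPM (3.5 ± 0.33).

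**Figure D3:**
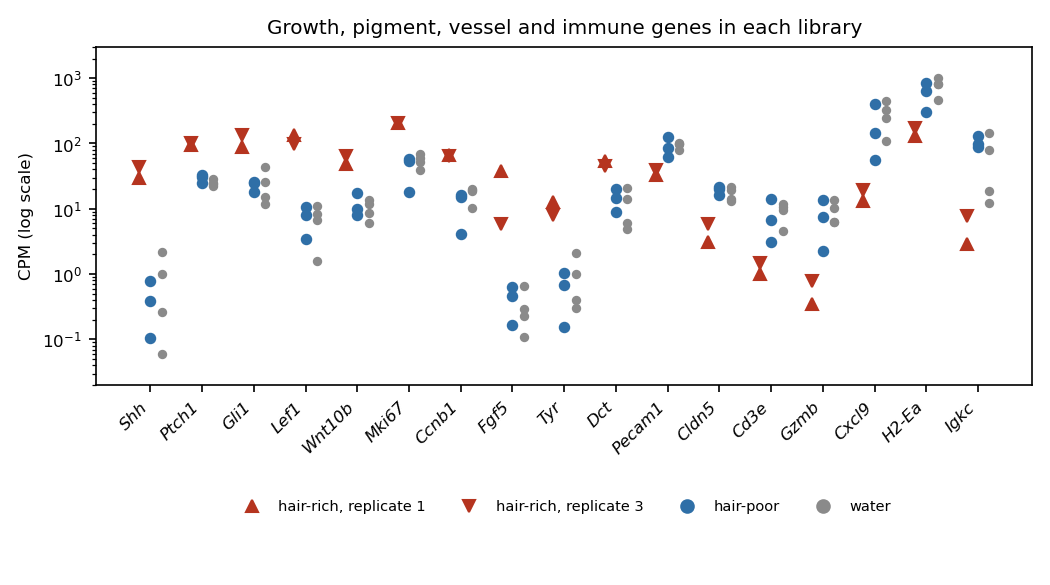
CPM (vertical axis, log scale) of 17 genes of growth signals, division, pigment, vessels and immune cells, 1 point a library: hair-rich replicates 1 and 3, the 3 hair-poor libraries and the 4 water libraries. From Shh to Dct the hair-rich points lie above the other nintedanib points, and from Pecam1 to Igkc they lie under them.

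Vessel genes were lower in hair-rich skin. Over the lists of blood vessel endothelium, lymphatic endothelium, vessel growth factors and pericytes, 39 of 77 genes were called lower and none higher, with a median of -1.05 against 0.05 over all genes. Pecam1, an adhesion molecule of endothelium, was at 32.4 and 39.3 CPM against 126, 62.9 and 85.2 CPM, with 78.4 to 103 CPM in water libraries (-1.29 ± 0.32). Cldn5, of endothelial tight junctions, was at 3.10 and 5.90 CPM against 21.2, 20.0 and 16.5 CPM (-2.13 ± 0.47), Tie1 at 9.71 and 12.1 CPM against 41.1, 19.6 and 31.3 CPM (-1.43 ± 0.35), and Prox1, the regulator of lymphatic identity, at 0.351 and 1.29 CPM against 4.58, 6.37 and 4.78 CPM (-2.75 ± 0.83). In 50 of the 77 genes both hair-rich libraries were under all 4 water libraries (22.2% over all genes), and in 5 genes all hair-poor libraries were (9.24%). Replicate 2 was the highest of the 5 libraries in 26 of 32 blood vessel genes, of which 18 were called lower with it and 11 without it. Without it 31 of the 77 genes were called lower and 2 higher, with a median of -0.81. Scaling mattered as well. With the genes at least 16-fold higher left out of the library totals, 27 of the 77 were called lower and 0 higher. The median was then -0.91, against 0.19 over all genes.

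Of the receptors that nintedanib inhibits, Flt1 and Flt4 (VEGF receptors 1 and 3) were called lower, at 17.9 and 18.5 CPM against 64.1, 28.4 and 27.4 CPM (-1.01 ± 0.40) and 3.51 and 6.83 CPM against 13.8, 13.9 and 22.1 CPM (-1.71 ± 0.52). Kdr, VEGF receptor 2, was at 13.3 and 12.7 CPM against 52.5, 12.4 and 20.2 CPM, where replicate 4 overlapped with the hair-rich side. Pdgfrb, of pericytes and fibroblasts, was at 17.6 and 31.9 CPM against 52.5, 31.8 and 67.3 CPM and Pdgfra at 31.5 and 29.3 CPM against 47.1, 21.9 and 35.3 CPM, neither called. Of these 9 receptors, 4 were called lower without replicate 3 or without replicate 4, and 1 without replicate 1 or 2. Vegfa, which growing follicles are known to make, was at 66.2 and 61.6 CPM against 184, 66.6 and 47.5 CPM (-0.39 ± 0.59), so that the hair-rich libraries stood level with replicates 4 and 5 and replicate 2 stood above the rest. Without replicate 2 its difference was 0.18. Angpt2, which destabilises vessels, was at 4.27 and 3.51 CPM against 4.73, 10.9 and 5.06 CPM (-0.71 ± 0.41) without a call, and Angpt1, its counterpart, was called lower at 2.51 and 4.75 CPM against 10.4, 10.9 and 6.95 CPM (-1.39 ± 0.49). Rgs5 and Kcnj8, of pericytes, were called lower, at 51.7 and 48.8 CPM against 183, 103 and 118 CPM (-1.38 ± 0.25) and 2.86 and 5.49 CPM against 17.6, 13.8 and 10.6 CPM (-1.77 ± 0.50).

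Immune genes were the other group at low levels. Over 11 lists of immune cell types, interferon response and MHC genes, 120 of 177 genes were called lower and none higher (median -1.61). Both hair-rich libraries were under all 4 water libraries in 137 of the 177 (22.2% over all genes). All 3 hair-poor libraries were in 14 of the 177, against 9.24% over all genes. Leaving out single nintedanib libraries gave 101 lower without replicate 1 and up to 148 without replicate 2 or replicate 3, with 1 gene higher in the latter case. Replicate 4 was the highest of the 5 libraries for most T cell, cytotoxic, MHC and mast cell genes. Without it 108 were called lower and the median was -1.29. With the genes at least 16-fold higher left out of the library totals, 107 of the 177 were called lower and 0 higher. The median was then -1.47, against 0.19 over all genes. Lower calls among interferon-stimulated genes went from 19 to 13 with that scaling.

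T cell genes were called lower in 16 of 21 cases (median -2.01) and cytotoxic genes in 16 of 17 (median -2.29). Cd3e, of the T cell receptor complex, was at 0.994 and 1.48 CPM against 3.12, 14.0 and 6.79 CPM, with 4.58 to 11.8 CPM in water libraries (-2.38 ± 0.67). Cd8a, of cytotoxic T cells, was at 0.643 and 0.369 CPM against 3.59, 15.2 and 4.62 CPM (-3.46 ± 0.72). The killing enzyme Gzmb was at 0.351 and 0.784 CPM against 2.24, 13.4 and 7.57 CPM (-3.32 ± 0.89), and Gzmk, a granzyme of memory T cells, at 0 and 0 CPM against 0.572, 4.32 and 1.22 CPM, had no count in hair-rich skin and was at least 26.3-fold lower. The hair-rich libraries were thus below the whole water range for Cd3e, Cd8a, Gzmb and Gzmk. Foxp3, of regulatory T cells, was also called lower, at 0.292 and 0.553 CPM against 0.884, 4.00 and 3.78 CPM (-2.32 ± 0.77), while Cd4, at 2.63 and 4.80 CPM against 4.63, 16.1 and 15.4 CPM, overlapped.

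Macrophage and monocyte genes were called lower in 14 of 23 cases (median -1.46). Adgre1, the F4/80 antigen, was at 21.4 and 28.0 CPM against 57.1, 117 and 119 CPM (-1.92 ± 0.40), Csf1r, a growth factor receptor of macrophages, at 56.2 and 71.2 CPM against 104, 209 and 251 CPM (-1.48 ± 0.42), and Lyz2, lysozyme, at 219 and 210.3 CPM against 369, 1425 and 558 CPM (-1.63 ± 0.58). The complement gene C1qa was at 42.6 and 93.5 CPM against 91.8, 274 and 139 CPM, with replicate 2 inside the hair-rich range and no call. Cd163 and Mertk, also macrophage genes, had differences of 0.65 ± 0.45 and -0.03 ± 0.16 and were not called. Of B and plasma cell genes 10 of 14 were called lower (median -2.59). Igkc, the kappa constant region of antibodies, was at 2.86 and 7.84 CPM against 129, 99.6 and 87.8 CPM (-4.43 ± 0.73) and Jchain, which joins secreted antibodies, at 2.05 and 2.95 CPM against 22.1, 35.6 and 52.7 CPM (-3.77 ± 0.44). Lower calls also covered 7 of 12 mast cell, 7 of 16 dendritic and Langerhans cell and 3 of 7 neutrophil genes, and both measured genes of epidermal gamma-delta T cells.

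All 10 MHC class II genes and 16 of 17 MHC class I genes were called lower (medians -1.83 and -1.38). Cd74, the invariant chain of class II, was at 431 and 650.2 CPM against 1069.8, 3807 and 3015 CPM (-2.12 ± 0.64; water 2131 to 5075 CPM). B2m, the light chain of class I, was at 680 and 1086 CPM against 2026, 2887 and 2205 CPM (-1.45 ± 0.37; water 2341 to 2949 CPM). Both were ordered with replicate 1 lowest, then replicate 3, then replicate 2. Interferon-stimulated genes had 19 of 38 called lower (median -1.40). The hair-rich libraries differed from each other here, with replicate 1 below replicate 3 in 37 of 38 genes. Isg15 was at 12.4 and 63.7 CPM against 28.0, 50.9 and 40.6 CPM and was not called, since replicate 3 exceeded all hair-poor libraries. Cxcl9, a chemokine induced by interferon gamma, was at 13.2 and 19.3 CPM against 54.9, 399.8 and 146 CPM (-3.20 ± 0.87) and the GTPase Iigp1 at 36.1 and 59.5 CPM against 168, 576 and 254 CPM (-2.65 ± 0.64). Without replicate 1, 11 of the 38 interferon-stimulated genes and 7 of the 17 class I genes were called lower, with medians of -0.48 and -0.91. Without replicate 3 these counts were 37 and 17, and without replicate 2 they were 30 and 17. Among the 3 libraries with the lane note alone (replicates 2, 3 and 5), 10 interferon-stimulated and 2 class I genes were called lower, and between replicates 1 and 4, which lack it, 38 and 17.

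Among genes linked to the immune privilege of the bulb, 5 of 10 were called lower and none higher. Cd274, which encodes PD-L1, was at 8.13 and 12.2 CPM against 34.2, 93.4 and 39.2 CPM (-2.32 ± 0.54), Ido1, which breaks down tryptophan, was at 0 and 0 CPM against 0.260, 1.37 and 0.946 CPM, with no count in hair-rich skin, and was at least 11.1-fold lower, and Cd200, at 58.6 and 54.5 CPM against 77.2, 56.0 and 67.1 CPM, overlapped. In the IL-1 family, Il1rl1, the IL-33 receptor, was at 1.87 and 2.17 CPM against 5.57, 21.7 and 8.18 CPM (-2.26 ± 0.59) and Il33 at 19.8 and 28.0 CPM against 76.3, 45.7 and 81.3 CPM (-1.47 ± 0.36). The anti-IL1RAP target Il1rap was at 21.6 and 19.7 CPM against 20.8, 26.8 and 24.1 CPM (-0.20 ± 0.12), not called, as were 13 of the 18 genes of this family. Lower calls in the family went from 4 to 10 without replicate 3 and to 7 without replicate 2.

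**Figure D4:**
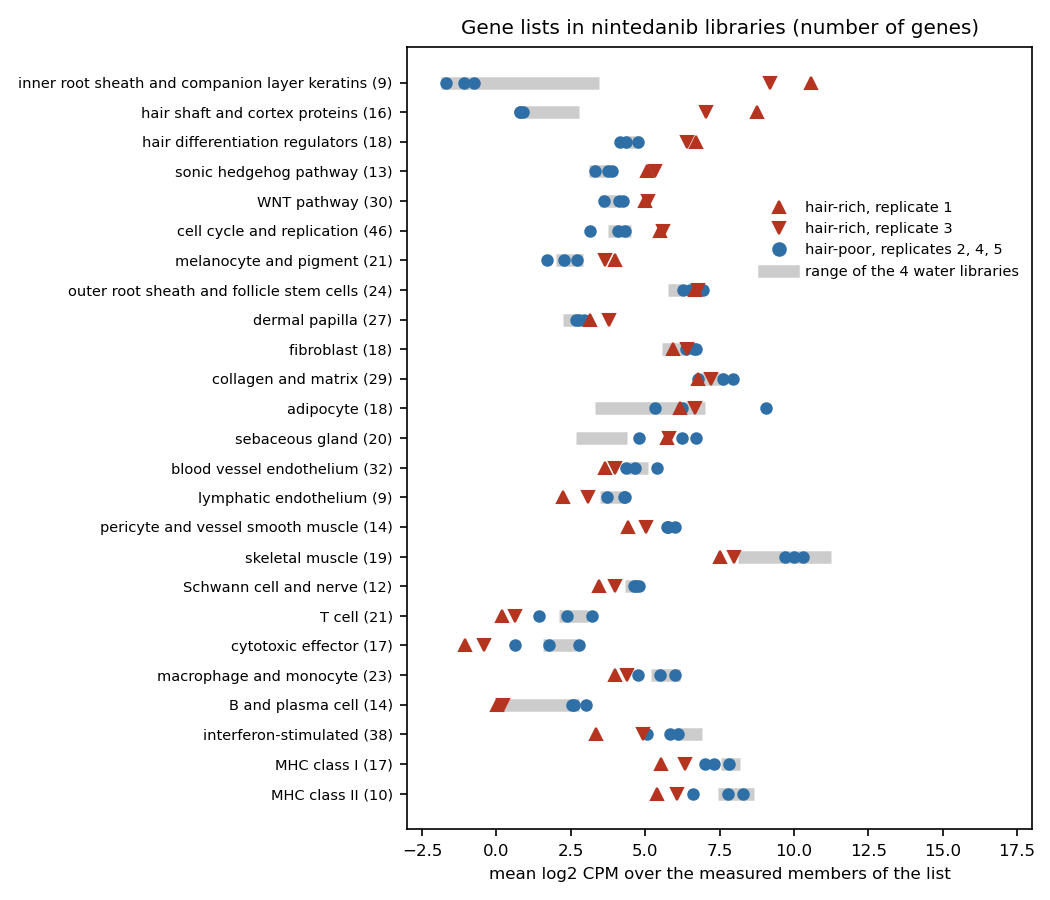
Mean log2 CPM over the measured members (horizontal axis) of 25 gene lists (rows, number of genes in brackets) in each nintedanib library, with the range of the 4 water libraries as a grey bar. From the root sheath keratins to the melanocyte list the hair-rich triangles lie to the right of the hair-poor points, from blood vessel endothelium down they lie to the left, and between these the lists overlap or lie close.

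Skeletal muscle genes moved with the split as well, red cell genes did so only in part, and fat genes did so little. All 19 measured skeletal muscle genes were called lower (median -2.10), and their summed level was 6458 and 8217 CPM in hair-rich skin against 38420, 31922 and 29155 CPM in hair-poor skin and 9224 to 71860 CPM in water libraries. Their part in the vessel, nerve and immune results was not tested. Adipocyte genes summed to 3323 and 3980 CPM against 22617, 2680 and 4323 CPM, so that replicate 2 alone stood apart, and 3 of 18 were called lower (7 without replicate 4, 5 without replicate 3, and 1, with 4 higher, without replicate 2). Red blood cell genes were highest in replicate 4, at 2256 CPM against 53.4 CPM in the lowest library. Of 6, 4 were called lower and Slc4a1 higher, by 3.56. Their mean log2 CPM was 1.87 in replicate 5, under 2.67 and 2.06 in hair-rich replicates 1 and 3. The globin Hbb-bs was at 21.5 and 20.4 CPM against 209.8, 1034 and 23.8 CPM, so replicate 5 was close to the hair-rich side. The genes called lower with the largest differences over all genes included the lipoprotein enzyme Pon1, at 0 and 1.57 CPM against 21.7, 16.7 and 23.1 CPM, the fast myosin Myh4, at 21.1 and 1327 CPM against 4871, 2647 and 3267 CPM, and the slow muscle gene Myl3, which was at 123 CPM in replicate 2 and under 1 CPM in the other 4 libraries. Its difference therefore rests on replicate 2.

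The fibrous dermis had few calls with all 5 libraries, and more without single libraries. Of 29 collagen and matrix genes 2 were called lower and none higher (median -0.41), and of 18 fibroblast genes 2 were lower (median -0.34). Over all genes 9.47% were called higher and 11.9% lower. Col1a1, of the main dermal collagen, was at 1128 and 2484 CPM against 634, 1538 and 3534 CPM (0.15 ± 0.91) and Col3a1 at 1019 and 1719 CPM against 1075, 1868 and 2678 CPM (-0.41 ± 0.54). The sides overlapped for both, and without replicate 2 the difference of Col1a1 turned to -0.48. These counts rest on single libraries: lower calls were 10 without replicate 2, 8 without replicate 3 and 4 without replicate 1 among collagen and matrix genes, and 7 without replicate 3, 3 without replicate 5 and 1 without replicate 1 or 4 among fibroblast genes. In the epidermis, 3 of 24 differentiation genes were called lower and 1 higher (median -0.65), which became 13 and 3 without replicate 3, 9 and 0 without replicate 2, 3 and 3 without replicate 5, and 1 and 0 without replicate 1. Krt10 was at 1532 and 6306 CPM against 6740.3, 9557 and 15051 CPM (-1.67 ± 1.07) and Krt1 at 522 and 2317 CPM against 2901, 4905 and 10588 CPM (-2.27 ± 1.20), both called lower, with replicate 1 far under the other libraries. Water libraries had 10419 to 30100.1 CPM of Krt10 and 11491 to 29844 CPM of Krt1. Of 14 activation genes, Krt17, also of the outer root sheath, Sprr1a and Areg were called higher and Sprr2d lower; without replicate 3 the counts were 6 and 3, and without replicate 1 they were 3 and 4. Krt16, of stressed epidermis, was at 81.9 and 31.5 CPM against 36.4, 55.9 and 205 CPM, with 559 to 3428 CPM in water libraries, low on both sides of the split.

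To ask which genes go with hair keratin level outside nintedanib, each gene was regressed on log2 summed hair keratin CPM within the other 4 groups (edgeR's quasi-likelihood test, 16 libraries, group means as covariates, Benjamini-Hochberg adjustment over 19958 genes). Slopes are log2 changes per doubling of hair keratin CPM. Of these genes 26 (0.13%) rose with hair keratin level and none (0%) fell, with 330 falling at an unadjusted p under 0.05 and 27 by DESeq2. Hair keratin level ran from 2.29 to 41.3 CPM in these libraries, far under the hair-rich ones, and leaving Krt85 out of all sums gave 39 positive and 0 negative slopes, with all 26 among them. The calls rest on few libraries: without replicate 1 of the allogeneic isotype group, which had the highest level (41.3 CPM), none of the 26 remained, nor without that library and water replicate 3 (31.4 CPM). That isotype library also had the lowest share of skeletal muscle counts in the series, at 0.0122%, and the part of muscle content in the slopes was not tested.

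Of the 26 genes that rose, 12 were in the root sheath, shaft and outer root sheath lists. S100a3 had a lowest, median and highest level of 0.0522, 0.750 and 14.5 CPM and a slope of 1.51 ± 0.16 (edgeR adjusted p = 0.00227). Krt75 ran through 1.15, 50.8 and 184 CPM with a slope of 1.21 ± 0.13 (edgeR adjusted p = 0.00227), and Tchh through 3.86, 5.80 and 98.4 CPM with a slope of 1.02 ± 0.12 (edgeR adjusted p = 0.00295). For S100a3 and Tchh the highest library was replicate 1 of the allogeneic isotype group. The root sheath list had 5 of 6 tested genes with a positive call (Krt25, Krt27, Krt28, Krt71 and Krt75), the shaft and cortex list 3 of 14 (S100a3, Tchh and Vsig8), and the outer root sheath and stem cell list 4 of 24 (Krt79, Sox9, Lrig1 and Foxc1). Sox9 ran through 9.11, 55.2 and 82.9 CPM with a slope of 0.49 ± 0.06 (edgeR adjusted p = 0.00373). None of 46 cell cycle, 13 hedgehog, 31 WNT, 19 pigment, 78 vessel or 183 immune genes was called in either direction. Over all genes the shares called were 0.13% positive and 0% negative. At such shares, lists of this size would seldom hold a call, so its absence does not set them apart.

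**Figure D5:**
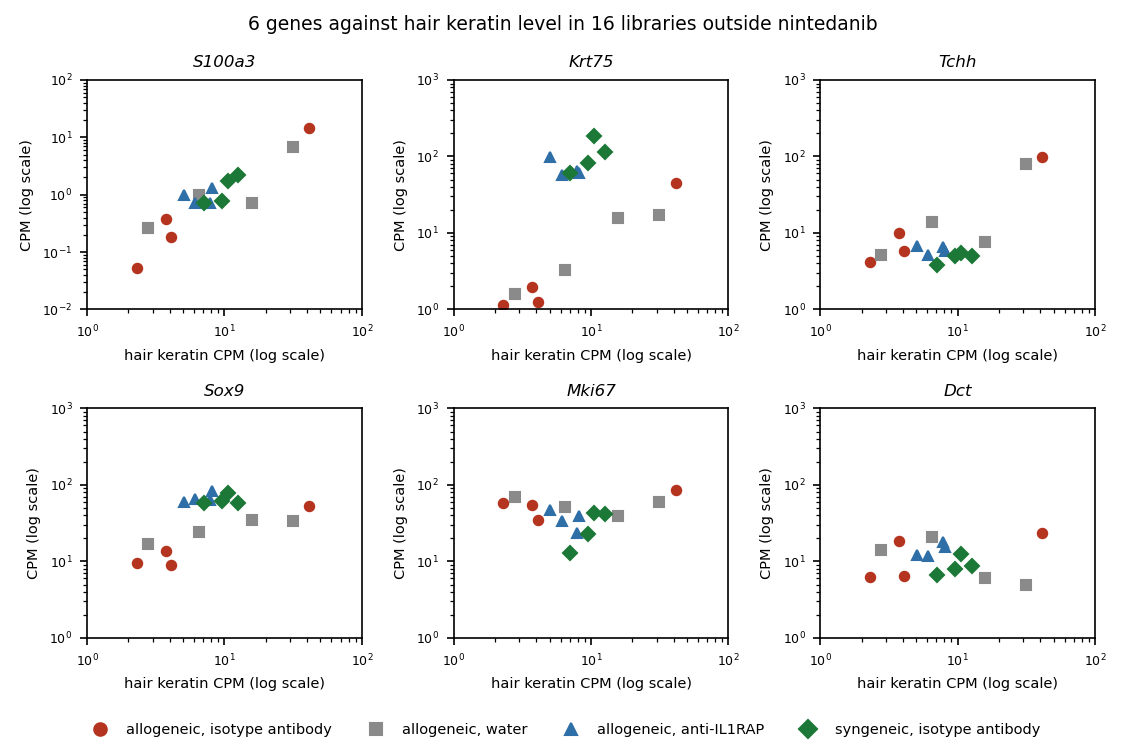
CPM of 6 genes (vertical axes, log scale) against summed hair keratin CPM (horizontal axes, log scale) in the 16 libraries outside nintedanib, with a symbol for each of the 4 groups. S100a3, Krt75, Tchh and Sox9 have a called positive slope within groups, of 1.51, 1.21, 1.02 and 0.49, and Mki67 and Dct do not.

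Several genes that parted the nintedanib libraries had no called slope over the low hair keratin levels of the other groups. Mki67 ran through 12.9, 42.4 and 86.5 CPM with a slope of 0.10 ± 0.11, Lef1 through 1.44, 5.18 and 11.2 CPM with 0.11 ± 0.17, and Dct through 4.87, 12 and 23.7 CPM with 0.08 ± 0.16. Pecam1 had a slope of -0.01 ± 0.06 and Cd3e of -0.01 ± 0.16. None passed (edgeR adjusted p = 1.000 for each). Shh ran through 0, 0.269 and 4.41 CPM with a slope of 1.22 ± 0.27, which did not pass either (edgeR adjusted p = 0.113). Of the 26 genes that rose, 23 were measured in the nintedanib libraries at the level required. Of these, 13 were called higher in hair-rich skin, against 9.47% of all genes. Fst, a binder of activin and BMP, Col8a2 and Wfdc3 were called lower there, against 11.9% of all genes. Fst was at 31.5 and 42.3 CPM against 63.4, 87.5 and 82.7 CPM in the nintedanib libraries and had a slope of 0.36 ± 0.06 outside them.

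By correlation with summed hair keratin level over all 21 libraries, after group means were subtracted, the 6 genes most alike outside hair keratins and Krtap genes were Tchh (r = 0.983), Prr9 (0.982), Gprc5d (0.982), Lyg2 (0.976), Calhm4 (0.975) and Tgm6 (0.969). The 21 points share library depth and scaling, and the 2 hair-rich libraries carry most of the spread, so these values are a description. Prr9, a proline-rich gene, was at 4225 and 979 CPM in hair-rich skin and at 1.72, 1.42 and 2.56 CPM in hair-poor skin. Outside nintedanib its highest level was 21.5 CPM, in replicate 1 of the allogeneic isotype group, and its slope was 0.87 ± 0.13 (edgeR adjusted p = 0.0221).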

How the data were processed

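RNA-seq of 21 skin libraries was used. Per the submitters' processing notes, reads were handled with FastQC, Trimmomatic, STAR and featureCounts on GRCm39, with no version given, and no source used here names the annotation. The authors deposited raw counts, with genes given by symbol, made in 2 counting runs with partly different gene names: 12 libraries (syngeneic, allogeneic isotype and anti-IL1RAP) and 9 (water and nintedanib). The NEBNext Ultra RNA kit named in the protocols does not mark strand, so reads of a gene and its antisense partner cannot be told apart.

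Columns were mapped to samples by name. CPM used TMM factors over 21 libraries (edgeR 4.0.16, R 4.3.3; filterByExpr with a minimum count of 10). Totals ran from 17130264 to 32899212 counts. Within nintedanib, genes with a mean of at least 0.5 CPM were described without a test, since hair keratin level chose the sides. A fold against a side with no count is a bound against 3 counts over that side. Intervals and floors cover counting error only, at a confidence level of 95%, by the exact method.

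Slopes were tested with edgeR's quasi-likelihood test, with Benjamini-Hochberg adjustment at 0.05 and with DESeq2 1.42.0 as an alternative. Tested on simulated data for the slopes in 16 libraries (19740 genes), 199 of 200 simulated slopes were recovered with 11 false calls. The simulated slopes were of size 1. Recovery of smaller slopes, such as the 0.49 of Sox9, was not tested. All pairs of nintedanib libraries differed by more than sampling noise. The labels do not name separate animals, so p-values may measure technical spread only. Names given were members of 45 gene lists, the genes with the largest differences, the called slopes and the genes most alike to the hair keratin pattern. Of 130 genes with values in the text, 38 were chosen after their values were seen, from the lists. The members and lists were chosen with earlier results of these data known. Promoter sequences are RefSeq, build GRCm38.p6, and were joined by symbol only. Alternatives were other scalings, filters and prior counts, libraries by lane note, another covariate, the replicate number as a block and leaving out libraries.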

Additional observations from a re-analysis of the deposited data

Results flagged for a closer look

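In 6 of 154 values examined in the groups of 4 or 5 libraries, 1 library stood apart from its group by Dixon's criterion, which chance meets in about 1 group in 20. Among nintedanib libraries, log2 CPM of Vegfa was 7.52 in replicate 2 and 5.57 to 6.06 in the other 4. Among water libraries, log2 CPM of the cortex keratin Krt34 was -0.47 in replicate 3 and -3.41 in the other 3, in which it was not counted. The fat hormone Adipoq was at 2.31 log2 CPM in water replicate 2 and at 6.26 to 6.91 in the others. The mean log2 CPM of the pigment signal list was 2.88 in water replicate 4 and 2.26 to 2.29 in the others. In water replicate 1 the T cell list was at 2.12 (others 2.93 to 3.07) and the mast cell list at 2.53 (others 3.46 to 3.63).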

How the results depend on the processing

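For the split, 1568 genes were called higher and 1975 lower. A mean of at least 5 CPM gave 970 higher and 1288 lower, and no filter beyond 1 count gave 2434 higher, in both cases because another number of genes was examined. Leaving out single nintedanib libraries gave 1476 to 2221 higher and 1793 to 2760 lower. The total without the genes at least 16-fold higher was added after seeing the data. Of 202 called genes followed through these alternatives, 0 changed direction, with 134 values that lost the call and 2694 that kept it. Of 31 genes named in the text without a call, 14 changed direction in at least 1 alternative and 18 gained a call in at least 1.

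For the slopes, 26 genes were positive and 0 negative. Without a filter the counts were 52 and 1, with DESeq2 115 and 27, and within the first counting run alone 27 and 1, of which 17 positive genes were shared. The sum without Krt85, added after seeing the data, gave 39 and 0. A covariate from Krtap genes gave 0 and 0, and so did leaving out the 2 libraries farthest from the median hair keratin level, where the slope of Foxe1 turned to -0.30. Leaving out single libraries gave 0 to 36 positive and 0 to 1 negative. The 0 positive came without allogeneic isotype replicate 1. Counts of 11 and 12 came without isotype replicates 2 and 3, 16 without syngeneic replicate 2 and 17 without anti-IL1RAP replicate 4. The cause was not tested. Replicate numbers did not pair the libraries: of 24 pairs of equal number, correlations ran from -0.41 to 0.35. With the replicate block, 0 slopes were positive and 0 negative (508 and 268 at an unadjusted p under 0.05). Genes at a few counts, such as Shh in hair-poor skin, are limited by depth.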

Other observations

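Smooth muscle genes were also mostly called lower in hair-rich nintedanib skin: of 10 genes of arrector pili and other smooth muscle, 6 were called lower and 1 higher (median -1.13). Of 20 immediate early and heat shock genes, which respond to handling, 2 were called higher and 2 lower (median 0.16). These counts were near the shares over all genes, 9.47% higher and 11.9% lower. Serpinb12, a protease inhibitor, was at 0.819 and 2.03 CPM against 13.9, 35.8 and 38.9 CPM and was among the genes lowest in hair-rich skin (-4.28 ± 0.77). Predicted genes without a name made up 275 of the 1568 genes called higher. Their share among all 16560 genes examined is not given here, so the count does not show an excess.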
